A study of Mus musculus with 24 samples.

Results

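The genes described here are 7 transcription factors of the endoderm, Gata4, Gata6, Sox17, Sox7, Foxa2, Foxa1 and Hnf4a, taken by symbol from the 22926 gene symbols of the count tables. Where a symbol had several lines, 5 for Sox17 and 3 for Foxa2, the first was used, and it was also the highest in every library. RNA with poly(A) was sequenced from 24 libraries, each made from 1 clone of a feeder-free mouse embryonic stem cell (ESC) line of 129/SVj origin with an eGFP reporter knocked into Pou5f1 (Oct4). At D0 the cells were undifferentiated and kept in serum with LIF, the cytokine that holds ESCs in the pluripotent state, and at D6 LIF had been withdrawn for 6 days. On each day WT and Tet1-/- were represented by 3 clones each, and Tet2-/-, the double knockout DKO (Tet1-/-:Tet2-/-) and the triple knockout TKO (Tet1-/-:Tet2-/-:Tet3-/-) by 2 clones each. All knockouts and the WT clones descend from the same parental reporter clone, so a genotype is represented by 2 or 3 clones of a single line. Tet proteins are dioxygenases that oxidize 5-methylcytosine in CpG dinucleotides, and the comparisons ask how the endoderm factors respond to LIF withdrawal when these enzymes are missing.

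The knockouts were made with Cas9 and 1 guide per gene. The targets are shown because they place each edit inside a coding exon, where a small indel can end the protein and leave the RNA in place. They lie in Tet1 (mm9, chr10:62296293-62296315), Tet2 (chr3:133148617-133148639) and Tet3 (chr6:83329885-83329907), all on the minus strand, which is also the strand of the gene. The capitals mark the PAM.
Tet1 target: ggctgctgtcagggagctcaTGG
Tet2 target: gaaagtgccaacagatatccAGG
Tet3 target: aaggaggggaagagttctcgAGG
At D0, Tet2 RNA was 87.9 to 94.0 CPM (counts scaled to library size after TMM normalization) in WT and 20.9 and 23.2 CPM in the Tet2-/- clones (Tet2_KO_3.10 and Tet2_KO_3.11), below every WT clone. Tet3 RNA was 5.05 to 7.94 CPM in WT and 4.43 and 2.84 CPM in TKO. Tet1 RNA was 220 to 431 CPM in WT and 93.4 to 358 CPM in Tet1-/-, and these ranges overlap, so its RNA does not check that label. In TKO at D0, clone TKO_8.4 had 568 CPM of Tet1 and 42.5 CPM of Tet2, and clone TKO_8.12 had 41.7 and 8.16 CPM, so that the clones lay on either side of WT for Tet1 and both below WT for Tet2. The DKO clones had 373 and 231 CPM of Tet1 and 55.7 and 22.3 CPM of Tet2. At D6 Tet2 RNA was 12.3 to 16.0 CPM in WT and 15.9 and 16.6 CPM in Tet2-/-, so that it does not check the Tet2-/- label on that day, and Tet3 RNA was 13.3 to 21.0 CPM in WT and 7.72 and 8.74 CPM in TKO.

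In the early embryo, Gata6 acts against Nanog to set apart the primitive endoderm, the layer that forms the yolk sac, and Gata4, Sox17 and Sox7 act after it. Foxa2 is a pioneer factor that opens chromatin in the definitive endoderm, which gives rise to the gut, and Foxa1 works beside it, while Hnf4a is a nuclear receptor of the visceral endoderm and later of the liver. None of these genes is restricted to endoderm. Gata4 and Gata6 also act in the heart, Sox17 and Sox7 in endothelium, and Foxa2 in the node, notochord and floor plate. In bulk RNA, fewer cells of a type and less RNA per cell cannot be told apart.

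After 6 days without LIF, WT clones expressed Gata4, Gata6, Sox17, Foxa2 and Foxa1 at higher levels than at D0 and Sox7 at a lower level, whereas Hnf4a did not pass the test. A gene was called at an adjusted p-value under 0.05 in edgeR's quasi-likelihood test and a change of more than 2-fold. In WT, 5 of 7 members were called higher, against 20.7% of the 15639 genes tested, and 1 was called lower, against 13.3%. Tet1-/- had 5 higher and 2 lower (19.9% and 11.2% of all genes) and DKO 5 higher and 1 lower (18.6% and 10.6%). Tet2-/- had 2 higher and 1 lower (12.7% and 6.44%), and TKO had 1 higher and 1 lower (16.8% and 8.63%). The median log2 change of the members was 5.14 in WT, 4.55 in Tet1-/-, 2.68 in DKO, 1.28 in Tet2-/- and 0.95 in TKO, while the median over all genes lay between -0.01 and 0.01 in every genotype. Foxa2 rose and Sox7 fell in all 5 genotypes.

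**Figure D1:**
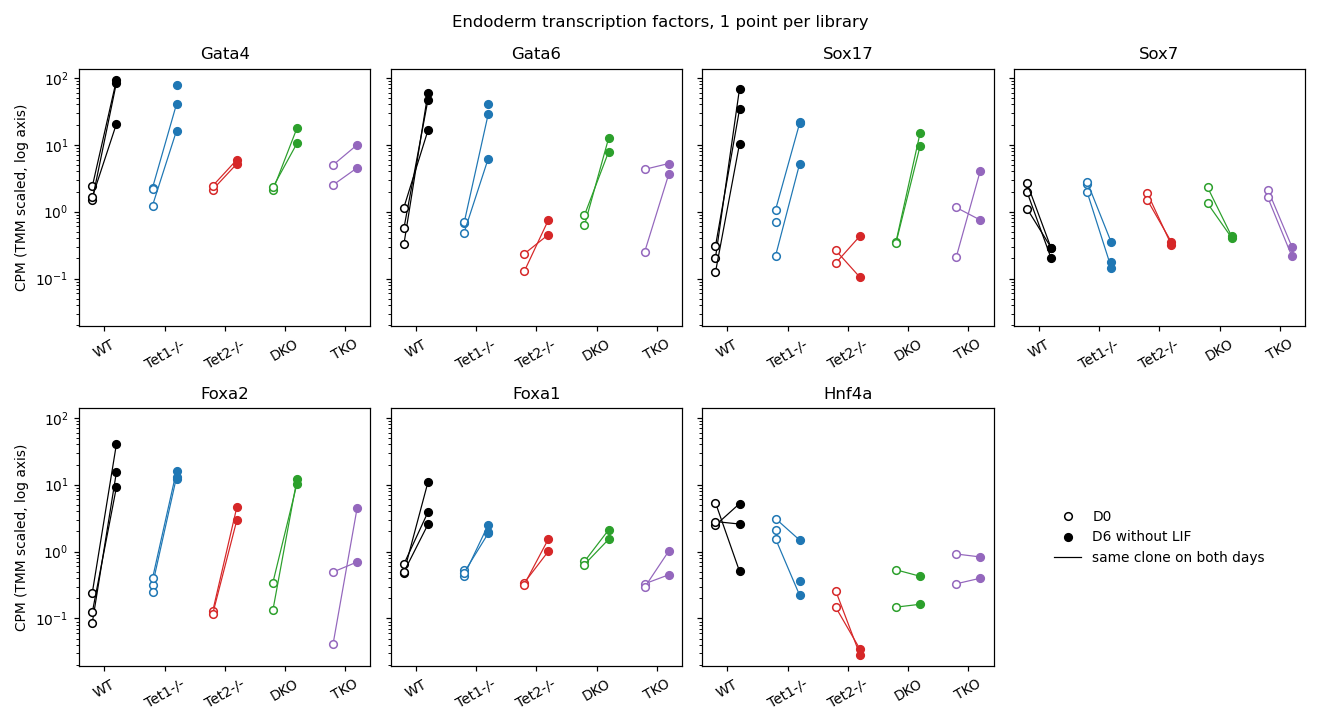
CPM (TMM scaled, log axis) of each endoderm factor in each library, by genotype, with open points for D0, filled points for D6 and a line where the same clone was sequenced on both days. At D6, Gata4 was 20.4 to 91.9 CPM in WT and 5.18 and 5.96 CPM in Tet2-/-, and the WT clones spread 3.62-fold to 10.2-fold between lowest and highest for the members other than Sox7.

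**Figure D2:**
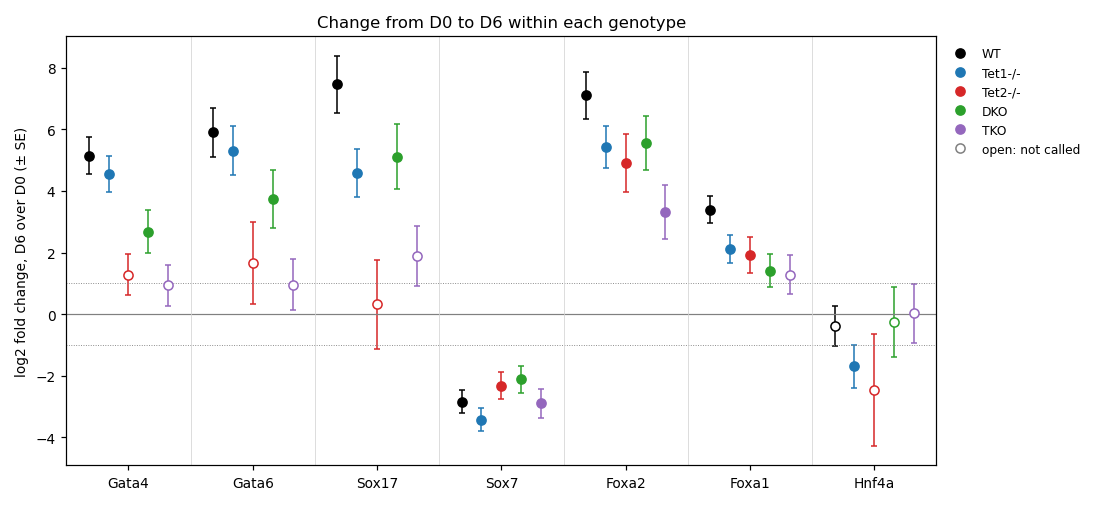
log2 fold change from D0 to D6 within each genotype, with its standard error, filled where the change was called. Foxa2 lies between 3.31 (TKO) and 7.09 (WT), and Sox7 lies between -3.42 (Tet1-/-) and -2.12 (DKO).

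Levels can be compared between genes only per length. At D6 in WT, the mean CPM per kilobase of exon was 16.7 for Gata4, 12.8 for Gata6, 11.9 for Sox17 and 9.07 for Foxa2, followed by 1.81 for Foxa1, 0.550 for Hnf4a and 0.0787 for Sox7. The ranges of the WT clones overlapped between neighbours in this order, except that Foxa1 lay below Foxa2 in every clone and Sox7 below Hnf4a. At D0 in WT, Hnf4a had the highest level per kilobase with 0.708, Sox7 had 0.583 and Gata4 had 0.472, and the ranges of these 3 genes overlapped between the WT clones.

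Gata4 was transcribed at a low level at D0 in every library and differed between genotypes at D6. At D0 it was 2.38, 1.65 and 1.51 CPM in WT, and at D6 it was 91.9, 20.4 and 84.0 CPM in the same clones (O4.1, O4.2 and O4.13). The rise in WT was 5.14 on the log2 scale (SE 0.60, adjusted p = 6.72e-07). In Tet1-/- at D6 it was 40.9, 77.4 and 16.3 CPM, and the DKO clones had 10.5 and 17.7 CPM. The Tet2-/- clones went from 2.13 and 2.42 CPM to 5.18 and 5.96 CPM, a log2 change of 1.28 (SE 0.67, adjusted p = 0.137). With clone as a block, which pairs the days, this change was called, at an adjusted p of 0.0169. The TKO clones, at 2.51 and 4.99 CPM at D0, had 4.52 and 9.99 CPM at D6, a log2 change of 0.93 (adjusted p = 0.245). All WT values at D6 lay above all DKO, TKO and Tet2-/- values, and the Tet1-/- clones overlapped with WT.

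The group means of Gata6 at D6 had the same order as those of Gata4, with Tet2-/- farther below the rest. At D6 it was 59.3, 16.4 and 46.9 CPM in WT clones O4.1, O4.2 and O4.13, and 28.4, 40.0 and 6.16 CPM in Tet1-/- clones Tet1_KO_2.1, Tet1_KO_2.2 and Tet1_KO_2.4. DKO had 7.79 and 12.4 CPM and TKO had 3.63 and 5.24 CPM. The Tet2-/- clones had 0.749 and 0.453 CPM, from 26 and 13 counts, below every other D6 library. Tet2-/- was thus lower than WT by a log2 difference of -6.07 (SE 0.93, adjusted p = 0.00434). The change from D0 was called in WT (log2 5.90), Tet1-/- (5.31) and DKO (3.74). In TKO, clone TKO_8.12 already had 4.29 CPM at D0, whereas the other D0 libraries had at most 1.15 CPM. The log2 change of Gata6 in TKO was 0.95 (adjusted p = 0.35) with both clones, and 3.86 (adjusted p = 0.0396) without clone TKO_8.12, which leaves 1 TKO library a day, assumed to vary like the other groups. The reads of Gata6 may include those of a lincRNA that overlaps it on the other strand, since the RNA-seq kit does not mark strand.

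Sox17, an HMG-box factor of primitive and definitive endoderm, had the largest fitted change in WT, with Foxa2 within its error. At D0 it was 0.202, 0.123 and 0.302 CPM in WT, from 3 to 7 counts per library, and at D6 it was 68.5, 10.3 and 33.7 CPM in the same clones. Summed over clones, 2700 counts at D6 stood against 15 at D0, a ratio of 165 (95% counting interval 99.8 to 295), and the fitted log2 change was 7.46 (SE 0.93). Tet1-/- had 21.2, 22.2 and 5.24 CPM at D6, and DKO had 9.55 and 15.0 CPM. The Tet2-/- clones had 0.171 and 0.263 CPM at D0 and 0.432 and 0.105 CPM at D6. These days overlap, with 13 and 18 counts in all, and the log2 change of 0.32 (SE 1.44, adjusted p = 0.877) was not distinguishable from 0 at this depth. In TKO the clones moved in different directions, from 0.209 to 4.09 CPM in clone TKO_8.4 and from 1.15 to 0.749 CPM in clone TKO_8.12. With both clones the log2 change in TKO was 1.88 (adjusted p = 0.111), and without clone TKO_8.12 it was 4.29 (adjusted p = 0.0364), again with 1 TKO library a day and the spread of the other groups.

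Sox7, a relative of Sox17 in parietal endoderm and endothelium, moved the other way. At D0 it was 1.98, 1.11 and 2.68 CPM in WT, and it lay between 1.33 and 2.78 CPM in the knockouts. At D6 it was 0.202 to 0.290 CPM in WT and 0.145 to 0.427 CPM in the knockouts, from 4 to 15 counts per library. Every D6 library lay below every D0 library. The log2 change was -2.84 in WT (SE 0.38, adjusted p = 3.08e-06), and it was -2.12 in DKO, -2.89 in TKO, -2.32 in Tet2-/- and -3.42 in Tet1-/-. No knockout differed from WT in Sox7 at D0 or D6 in this test, where the log2 differences lay between -0.24 and 0.66, with SE up to 0.49.

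Foxa2 and Foxa1 are forkhead factors that bind closed chromatin, and both rose in WT, Tet1-/-, Tet2-/- and DKO. At D0 Foxa2 had 1 to 12 counts per library and was too low to be tested among D0 libraries. At D6 it was 40.1, 9.11 and 15.3 CPM in WT clones O4.1, O4.2 and O4.13. It was 12.1 to 16.2 CPM in Tet1-/-, 10.3 and 12 CPM in DKO, 4.58 and 2.93 CPM in Tet2-/-, and 4.52 and 0.699 CPM in TKO. Tet2-/- and TKO lay below every other D6 library, and their ranges overlapped with each other. The log2 change from D0 was 7.09 in WT (SE 0.75), 5.41 in Tet1-/-, 5.55 in DKO, 4.90 in Tet2-/- (SE 0.95, adjusted p = 0.000452) and 3.31 in TKO (SE 0.87, adjusted p = 0.00375). The call in TKO rested on clone TKO_8.4, without whose D6 library the change was 1.36 (adjusted p = 0.295). Without clone TKO_8.12 on both days it was 6.64, from 1 TKO library a day. In Tet2-/- the log2 change of Foxa2 stood beside 1.66 for Gata6 (SE 1.34) and 0.32 for Sox17, which did not pass the test, and the difference between these genes was not tested.

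Foxa1 was less abundant and changed less. At D6 it was 10.9, 2.54 and 3.88 CPM in WT clones O4.1, O4.2 and O4.13, after 0.485 to 0.648 CPM at D0. It was 1.86 to 2.5 CPM in Tet1-/-, 1.52 and 2.1 CPM in DKO, 1.01 and 1.53 CPM in Tet2-/-, and 1.02 and 0.449 CPM in TKO. All knockout libraries lay below all WT libraries. Both TKO clones lay below all Tet1-/- and DKO clones and the Tet2-/- clones below all Tet1-/- clones, whereas Tet2-/- overlapped with TKO and with DKO, and DKO with Tet1-/-. Its log2 rise from D0 was called in WT (3.39), Tet2-/- (1.92), Tet1-/- (2.1) and DKO (1.41), and the 1.27 of TKO was not called (adjusted p = 0.0959). The calls in Tet2-/- and DKO did not hold when either D0 clone or 1 of the D6 clones of the genotype (Tet2_KO_3.11 or DKO_5.11) was left out, where the adjusted p lay between 0.0573 and 0.141.

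Hnf4a, expressed at D0 in WT as Gata4 and Sox7 were, was lower in Tet2-/- and TKO before differentiation. At D0 it was 2.46, 5.39 and 2.81 CPM in WT clones O4.1, O4.2 and O4.13, and 3.1, 2.13 and 1.54 CPM in Tet1-/-. It was 0.256 and 0.146 CPM in Tet2-/-, 0.533 and 0.148 CPM in DKO, and 0.919 and 0.330 CPM in TKO. The 6 clones without Tet2 lay below all WT and Tet1-/- clones at D0. In the test among D0 libraries, Hnf4a was lower than in WT by a log2 difference of -4.19 in Tet2-/- (SE 0.64, adjusted p = 0.00612) and -2.5 in TKO (SE 0.54, adjusted p = 0.0176). The difference in DKO was -3.35 (SE 0.61, adjusted p = 0.0744), and in Tet1-/- it was -0.67 (SE 0.40, adjusted p = 0.525). In DKO it was called by DESeq2 (adjusted p = 4e-05) and without the filter on low counts (adjusted p = 0.0133). The call in Tet2-/- was lost without clone Tet2_KO_3.10 (log2 difference -4.58, adjusted p = 0.0627) or clone Tet2_KO_3.11 (-3.78, adjusted p = 0.123), each of which leaves 1 Tet2-/- library, and the call in TKO was lost when all 24 libraries were fitted together (0.0893). Hnf4a was the only member called at D0 in edgeR with all libraries of the day. It made up 1 of 6 members tested both in Tet2-/-, where 2.37% of 14456 genes were called lower, and in TKO, where 2.12% were. In Tet1-/- and DKO, 0 members and 0.00692% and 0.0208% of genes were called lower, and 1 member each, Sox17 (higher, as were 0.816% of genes) and Hnf4a (lower, as were 2.05%), had an unadjusted p under 0.05. In TKO at D0, Gata4 (log2 difference 1.01), Gata6 (1.73) and Sox17 (1.69) were higher than WT at an unadjusted p under 0.05, as were 1.9% of genes, with adjusted p-values of 0.0769, 0.168 and 0.169. Both TKO clones lay above every WT clone for Gata4 only. The differences of Gata6 and Sox17 rested on clone TKO_8.12, at 4.29 and 1.15 CPM. Clone TKO_8.4 had 0.251 CPM of Gata6, below the WT clones (0.323 to 1.15), and 0.209 CPM of Sox17, within WT (0.123 to 0.302).

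At D6 Hnf4a was 5.19, 0.508 and 2.58 CPM in WT clones O4.1, O4.2 and O4.13, higher than at D0 in O4.1 and lower in the other clones, and the log2 change in WT was -0.39 (SE 0.64, adjusted p = 0.606). Clone O4.2, the highest WT clone at D0, was the lowest at D6. Tet1-/- had 1.48, 0.357 and 0.221 CPM at D6, a log2 change of -1.69 (SE 0.70, adjusted p = 0.0405), which was not called with clone as a block (adjusted p = 0.0958). It lay between -2.92 and -1.27 in the 24 fits that left out 1 library, and its call was lost in 6 of them. DKO had 0.163 and 0.427 CPM and TKO had 0.831 and 0.399 CPM. Each Tet2-/- clone had 1 count at D6, 2 against 198 counts in WT, which is 79.7-fold lower with a 95% counting interval from 21.8 to 662. Other transcripts overlap Hnf4a on both strands, and their reads cannot be told apart from its own.

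The promoters of the forkhead genes and of Hnf4a differ in CpG, the dinucleotide whose methylated cytosine Tet proteins oxidize, and 1 window of each is shown for that reason. A RefSeq window of 300 bases (250 before the start of transcription and 50 after it, build GRCm38.p6, whereas the counts used mm9) was matched for 3 of the 7 members. CpGs are in capitals. The windows are Foxa1 at chr12:57546062-57546361 (minus strand), Foxa2 at chr2:148045899-148046198 (minus strand) and Hnf4a at chr2:163506607-163506906 (plus strand).
Foxa1: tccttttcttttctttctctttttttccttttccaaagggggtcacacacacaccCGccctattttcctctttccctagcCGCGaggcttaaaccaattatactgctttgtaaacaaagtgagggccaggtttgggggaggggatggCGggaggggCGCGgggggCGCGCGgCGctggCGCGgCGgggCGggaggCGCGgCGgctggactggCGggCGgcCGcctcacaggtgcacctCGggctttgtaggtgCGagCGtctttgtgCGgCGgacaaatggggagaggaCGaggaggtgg
Foxa2: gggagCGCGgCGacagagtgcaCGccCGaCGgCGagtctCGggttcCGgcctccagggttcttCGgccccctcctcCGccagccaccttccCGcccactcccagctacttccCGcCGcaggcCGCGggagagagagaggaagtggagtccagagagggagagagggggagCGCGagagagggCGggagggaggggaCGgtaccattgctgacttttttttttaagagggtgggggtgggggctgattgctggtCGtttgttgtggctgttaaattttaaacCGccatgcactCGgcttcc
Hnf4a: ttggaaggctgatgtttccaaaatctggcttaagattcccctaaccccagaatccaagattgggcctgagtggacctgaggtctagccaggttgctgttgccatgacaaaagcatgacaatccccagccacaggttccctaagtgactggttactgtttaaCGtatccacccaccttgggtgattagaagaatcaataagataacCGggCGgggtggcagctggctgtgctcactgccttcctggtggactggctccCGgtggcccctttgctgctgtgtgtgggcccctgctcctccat
These windows hold 26, 23 and 4 CpGs, and the median of all 32851 RefSeq promoters was 7. As many or fewer CpGs were found in 84.5% of promoters for Foxa1, 80.0% for Foxa2 and 38% for Hnf4a. The other windows of Foxa2 hold 13 and 12 CpGs, and the second window of Hnf4a also holds 4. On either strand, the GATA motif AGATAA was found once in the printed Hnf4a window and once in the Foxa2 window with 13 CpGs, against 11.2% of all promoters. The forkhead motif TGTTTAC was found once in Foxa1 (3.65% of promoters), and the Sox motif ACAAAG 4 times in Foxa1 and 2 times in the Foxa2 window with 13 CpGs (18.7% of promoters). A match of letters is not a bound site.

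At D6, 6 of 7 members were lower in Tet2-/- than in WT, against 9.45% of the 15435 genes tested. The log2 difference was -3.57 for Gata4 (SE 0.78, adjusted p = 0.0105), -6.07 for Gata6, -7.06 for Sox17 (SE 1.23, adjusted p = 0.00556), -2.52 for Foxa2 (SE 0.71, adjusted p = 0.0244), -2.19 for Foxa1 (SE 0.59, adjusted p = 0.0216) and -6.27 for Hnf4a (SE 1.46, adjusted p = 0.0116). Sox7, at 0.31 (SE 0.46, adjusted p = 0.625), was not called. The median of the members was -3.57 and that of all genes was -0.03. In each of the 6 genes both Tet2-/- clones lay below all 3 WT clones, as did 31.2% of all genes. The calls depended on having both Tet2-/- clones. Without clone Tet2_KO_3.10 only Gata6 was called, with 1.15% of all genes called lower, and without clone Tet2_KO_3.11 no member was, with 0% of genes, and the lost calls had adjusted p-values from 0.0536 to 0.171 while the log2 differences kept their sign. Leaving out WT clone O4.1, the highest of WT in these 6 genes, ended the calls of Foxa1 (adjusted p = 0.0534) and Foxa2 (0.0726).

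**Figure D3:**
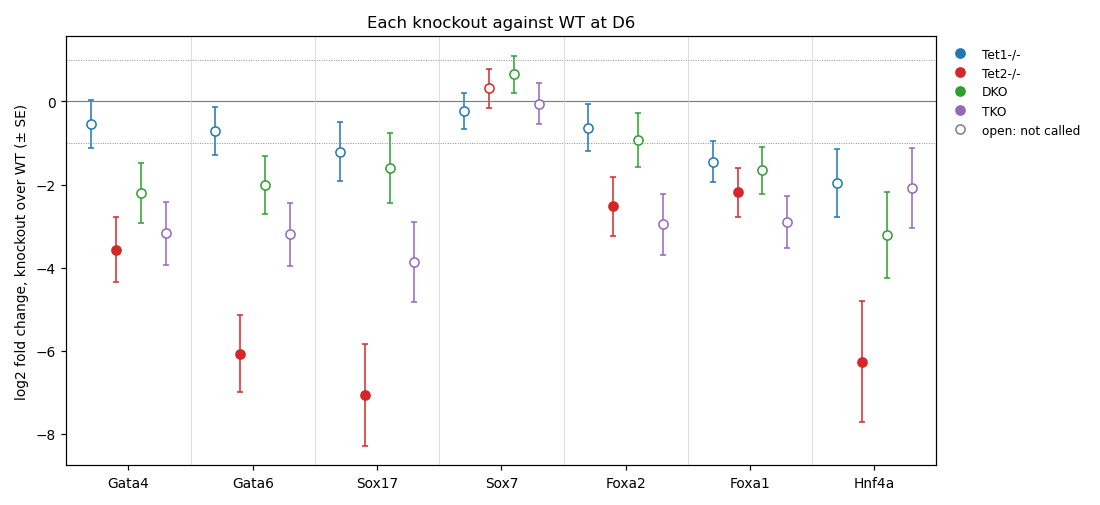
log2 fold change of each knockout against WT at D6, with its standard error, filled where called. Tet2-/- is filled for 6 members, from -2.19 (Foxa1) to -7.06 (Sox17), and the points of Tet1-/-, DKO and TKO are open.

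In Tet1-/-, DKO and TKO, 0 members were called lower than WT at D6 in edgeR, and in each of these comparisons 0% of all genes were. The median log2 difference of the members was -0.72 in Tet1-/-, -1.66 in DKO and -2.96 in TKO. At an unadjusted p under 0.05, 2 members were lower in Tet1-/- (Foxa1 and Hnf4a), 4 in DKO (these and Gata4 and Gata6) and 5 in TKO (Gata4, Gata6, Sox17, Foxa2 and Foxa1), against 1.05%, 2.59% and 3.23% of all genes. For these 5 genes the adjusted p in TKO lay between 0.0643 and 0.076, with log2 differences from -2.90 to -3.87. The outcome for TKO changed with the fit. DESeq2 called 5 members (1.9% of genes), a fit of all 24 libraries called 5 (1.73%), and edgeR without WT clone O4.2 called 5 (adjusted p from 0.0152 to 0.0212, 2.24% of genes). DESeq2 called 1 member, Hnf4a, in DKO (0.557% of genes) and 0 in Tet1-/- (0.104%). Both TKO clones lay below all WT clones in 5 members (18.9% of all genes), both DKO clones in 4 (18.4%), and the Tet1-/- clones in 1, Foxa1 (7.3%).

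Tet2-/- was also set against the other knockouts at D6. Against Tet1-/-, 3 members were lower (4.48% of genes), namely Gata4 (log2 difference -3.02, adjusted p = 0.0334), Gata6 (-5.35, adjusted p = 0.0109) and Sox17 (-5.85, adjusted p = 0.0175), and DESeq2 also called Hnf4a (adjusted p = 0.0129). Against DKO, which lacks Tet2 as well, Gata6 (-4.06, adjusted p = 0.016) and Sox17 (-5.45, adjusted p = 0.0159) were lower, 2 of 7 members against 6.37% of genes. Against TKO, 0 of 7 were called in edgeR (6.01% of genes were lower), 3 had an unadjusted p under 0.05 (10.1% of genes) and DESeq2 called 3 (7.53%). The differences from TKO were -2.87 for Gata6 (SE 0.91), -3.19 for Sox17 (SE 1.24) and -4.19 for Hnf4a (SE 1.64), with adjusted p-values of 0.0556, 0.0992 and 0.0919. For Foxa1 and Foxa2 no difference from DKO or TKO was called. When 1 or the other Tet2-/- clone was left out, 0 members were called in these comparisons, in which 0.0126% to 1.93% of all genes were called higher or lower. The calls against DKO also ended without either DKO clone, and without Tet1-/- clone Tet1_KO_2.1 only Gata6 was called against Tet1-/-.

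Whether the response to LIF withdrawal itself differed from WT was tested as the D6 change in a knockout minus that in WT. In Tet2-/-, 2 members had a smaller change (5.13% of genes), Gata4 by -3.86 on the log2 scale (SE 0.88, adjusted p = 0.00974) and Sox17 by -7.14 (SE 1.97, adjusted p = 0.0216). The call of Sox17 was lost in 3 of the 24 fits that left out 1 library, over which the difference lay between -8.52 and -6.38. Gata6, at -4.24 (SE 1.81, adjusted p = 0.113), did not pass in edgeR. In TKO, 3 members had a smaller change (1.74% of genes), Gata4 by -4.21 (SE 0.87, adjusted p = 0.0117), Gata6 by -4.95 (SE 1.15, adjusted p = 0.0179) and Sox17 by -5.58 (SE 1.43, adjusted p = 0.0276). Without TKO clone TKO_8.12 on both days, Gata4 was still called, and the differences of Gata6 (-2.05, adjusted p = 0.519) and Sox17 (-3.18, adjusted p = 0.404) were not. Sox17 in TKO also lost its call when the D0 library of WT clone O4.13 or O4.2 or the D6 library of O4.1 or TKO_8.12 was left out (adjusted p from 0.0502 to 0.0637), and Gata6 lost its call without TKO_8.4 at D6 (0.0584). Foxa2 and Foxa1 were not called in any knockout in edgeR with all libraries. Of the 24 fits that left out 1 library, 2 called Foxa2 in TKO. Foxa1 was called in 1 such fit in TKO and in 1 in Tet2-/-. DESeq2 called 3 members in Tet2-/- (6.43% of genes), with Gata6 added (adjusted p = 0.013), and 4 in TKO (2.59% of genes), with Foxa2 added at -3.86 (adjusted p = 0.0224). In edgeR without TKO_8.12 on both days, the difference for Foxa2 was -0.47 (adjusted p = 0.948). In Tet1-/- and DKO, 0 members and 0% of genes were called in edgeR, DESeq2 called 0 members, and 1 (Sox17) and 2 (Gata4 and Foxa1) members had an unadjusted p under 0.05, against 1.2% and 1.79% of genes lower. In this test, Hnf4a, lower at D0 already, differed by -2.07 in Tet2-/- (SE 1.96) and by 0.42 in TKO (SE 1.15).

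The spread between clones of a genotype was large at D6 and was shared by several members. In WT, clone O4.2 was the lowest and clone O4.1 the highest for all 6 members other than Sox7. In Tet1-/-, clone Tet1_KO_2.4 was the lowest for Gata4, Gata6 and Sox17 and the highest for Foxa2. In TKO, clone TKO_8.12 was higher than clone TKO_8.4 for Gata4 and Gata6 and lower for Sox17, Foxa2, Foxa1 and Hnf4a. The p-values measure the spread between clones of 1 parental line.

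The levels of genes that mark pluripotency differed between the same libraries. The summed CPM of 14 pluripotency genes at D6 was 921 to 1906 in WT, 1005 to 1824 in Tet1-/-, 1355 to 1431 in DKO, 1898 to 1926 in TKO and 2493 to 2720 in Tet2-/-, after 5348 to 6548 at D0. The summed CPM of the 7 members was 59.6 to 276 in WT, 46.4 to 154 in Tet1-/-, 40.3 to 60.1 in DKO, 17.8 to 18.8 in TKO and 11.4 to 12.3 in Tet2-/-. WT clone O4.2 and Tet1-/- clone Tet1_KO_2.4, the lowest of their genotypes for the members, were the highest for the pluripotency genes, and the TKO clones had about the pluripotency sum of WT clone O4.2 with a lower sum of the members. The part of undifferentiated cells in these results was not tested.

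**Figure D4:**
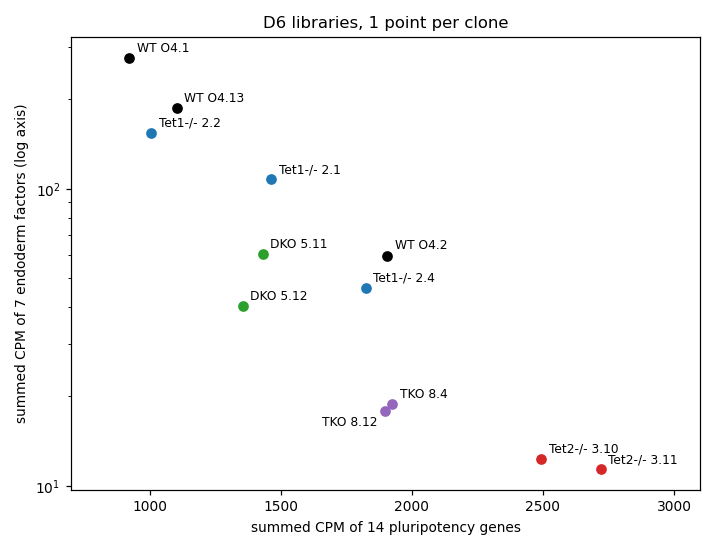
Summed CPM of the 7 endoderm factors (log axis) against the summed CPM of 14 pluripotency genes in each of the 12 D6 libraries, with the clone beside each point. The Tet2-/- clones, at 11.4 and 12.3 CPM for the endoderm factors, lie farthest to the right, and WT clones O4.1 and O4.2 are 276 and 59.6 CPM.

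Other genes of the endoderm were lower in Tet2-/- at D6 in part. Of the definitive endoderm list, 7 of 11 tested genes were lower and 0 higher (median log2 difference -3.40), where 9.45% of all genes were lower and 4.81% higher. Among the 7 were Lhx1, a LIM homeobox factor of the anterior endoderm, at 54.2 to 180 CPM in WT and 0.523 and 1.84 CPM in Tet2-/-, and Dkk1, a secreted Wnt inhibitor, at 6.32 to 35.5 CPM and 0.244 and 0.605 CPM. The list also holds the keratins Krt8 and Krt18. Its genes summed to 693 to 749 CPM in undifferentiated WT cells, so it does not mark endoderm alone. Of other endoderm factors, 6 of 13 were lower and 1 higher (median -1.16), with Mixl1 of the primitive streak at -3.94 and Gsc of the anterior streak at -2.92. Of the effectors of extraembryonic endoderm, 5 of 17 were lower and 0 higher (median -0.40), led by the receptor Pdgfra at -6.68, with 21.4 to 80.9 CPM in WT and 0.349 and 0.777 CPM in Tet2-/-. In signalling upstream of endoderm, 3 of 16 genes were higher and 1 lower (median -0.31). Lefty2, an inhibitor and target of Nodal, was 65.7 to 92.1 CPM in WT and 382 and 480 CPM in Tet2-/-, and the Nodal relative Gdf3 was higher by 2.12 on the log2 scale. Bmp2, a ligand made by extraembryonic endoderm and mesoderm, was lower at -7.18.

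Genes of other lineages that share these factors were lower in part in the same libraries. Of the cardiac mesoderm list, 9 of 14 tested genes were lower in Tet2-/- than in WT and 0 higher (median -3.49). Its summed CPM was 80.3 to 328 in WT, 33.4 to 207 in Tet1-/-, 33.9 to 41.0 in DKO, 26.5 to 53.9 in TKO and 17.4 to 18.9 in Tet2-/-, where Hand2, a factor of the developing heart, was at 0 in both clones. Of endothelium and blood, 5 of 13 were lower and 0 higher (median -1.22), with a summed CPM of 121 to 210 in WT, 89.1 to 233 in Tet1-/-, 85.7 to 113 in TKO, 70.1 to 84.4 in DKO and 72.5 to 76.5 in Tet2-/-. Of the node, notochord and floor plate, 6 of 8 were lower and 0 higher (median -3.95), with 138 to 255 in WT, 123 to 259 in Tet1-/-, 106 to 261 in TKO, 145 to 199.8 in DKO and 46.6 to 61.9 in Tet2-/-, and Shh and Nkx6-1 were at 0 in both clones. Nkx6-1, with 4 to 13 counts per WT clone, was at 0 in both TKO clones as well. The same list holds Cdx2, which the paper uses as a trophectoderm marker. Cdx2 was 3.38 to 26.0 CPM in WT, 0.432 and 0.697 CPM in Tet2-/- and 3.05 and 36.5 CPM in TKO. Over all genotypes at D0, the sums were 29.1 to 42.2 CPM for cardiac mesoderm and 86.1 to 134 CPM for endothelium and blood. They were 58.5 to 128 CPM for the node, notochord and floor plate. The D6 sums of DKO and Tet2-/- lay within or below these D0 ranges for cardiac mesoderm and for endothelium and blood. Of 14 pluripotency genes, 4 were higher and 1 lower (median 1.10), with Tcl1 at 3.18, Nr0b1 at 2.60 and Dppa3 at -2.83. Which cell type carried Gata4, Gata6, Sox17 or Foxa2 in the WT clones was not tested.

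**Figure D5:**
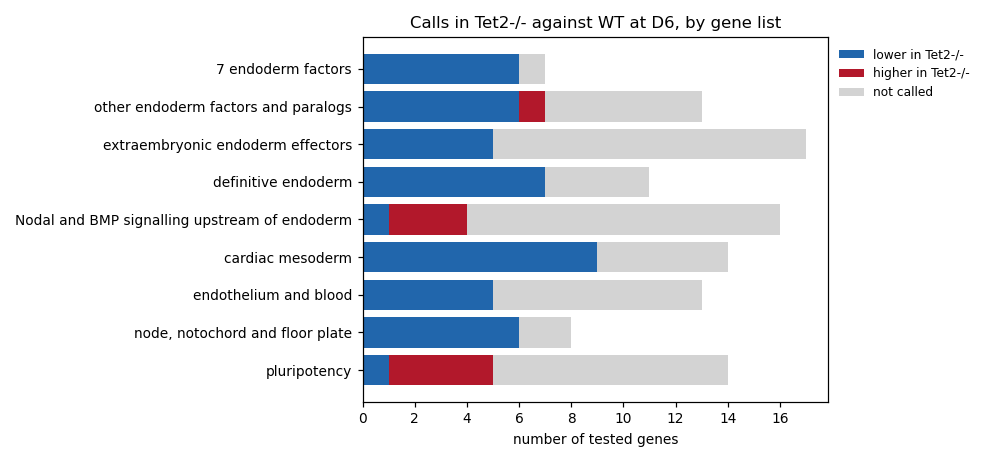
Number of tested genes called lower, called higher or not called in Tet2-/- against WT at D6 for the 7 endoderm factors and 8 other lists. The cardiac mesoderm list has 9 lower genes of 14, the definitive endoderm list 7 of 11, and the pluripotency list 4 higher and 1 lower of 14.

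Between D0 and D6 in WT, where 20.7% of genes were higher and 13.3% lower, most calls in the endoderm lists were higher. The definitive endoderm list had 8 of 11 genes higher and 0 lower, other endoderm factors 7 of 14 higher and 2 lower, and the effectors of extraembryonic endoderm 7 of 18 higher and 2 lower. In Tet2-/-, where 12.7% of genes were higher and 6.44% lower, the same lists had 6 higher and 1 lower, 4 higher and 1 lower, and 5 higher and 3 lower. Signalling upstream of endoderm had 6 higher and 4 lower in WT (median 0.36), and endothelium and blood had 5 higher and 4 lower (median 0.21). Cardiac mesoderm had 9 of 14 higher and 1 lower in WT (median 5.05). The node, notochord and floor plate list had 6 of 8 higher and 0 lower (median 4.24), where the median of definitive endoderm was 4.28. The rise was thus not particular to the endoderm lists. Prox1, a homeobox factor of the liver bud, rose by 4.84 on the log2 scale in WT and by 4.18 in Tet2-/-, and Eomes, a T-box factor that acts upstream of definitive endoderm, rose by 4.82 and 2.99. The endocytic adaptor Dab2 of visceral endoderm rose by 3.63 and 2.94.

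The genes most like each member over the 24 libraries were found as the smallest root mean square difference of centred log2(CPM + 1) among 14057 genes. They were Crb2 and Six2 for Gata4 (0.40 and 0.40, where Gata4 itself varied by 1.69), Pdgfra and Dkk1 for Gata6 (0.45 and 0.49, against 1.86), and Gata6 and Sema6d for Sox17 (0.50 and 0.51, against 1.86). For Foxa2 they were Clic6 and Wnt4 (0.53 and 0.55, against 1.70), and for Foxa1 Smoc2 and Myl3 (0.28 and 0.30, against 0.75). For Sox7 they were Polr2e and Eif3k (0.19 and 0.19, against 0.63), and for Hnf4a Tmem108 and Klhdc7a (0.52 and 0.57, against 0.80). Adding 1 CPM shrinks the changes of genes near or below that level, such as Sox7, Hnf4a and Foxa1. For these members a small difference does not mean a fold change of the same size.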

How the data were processed

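RNA-seq was made from total RNA with poly(A) selection and a library kit that does not mark strand, as paired-end reads. The authors mapped reads with STAR 2.5.1 to mm9 and deposited counts, whole reads per RefSeq transcript named by symbol, without normalization. ERCC spike-in lines in the tables numbered 0. Groups and clones came from the labels, and the label of 1 DKO library at D6, which writes the clone without a point, was read as clone DKO_5.12. The 7 members and the 8 other gene lists were chosen with earlier results of these data known.

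Libraries held 21729346 to 37290208 counts at D0 and 18400463 to 34219640 at D6, so that 3 counts, the limit that a count of 0 allows, equal 0.0805 to 0.163 CPM, for counting error only. In R 4.3.3, edgeR 4.0.16 was used with TMM factors (0.918 to 1.10 over all libraries), filterByExpr (minimum count 10), the quasi-likelihood test and Benjamini-Hochberg adjustment over all genes. All 24 libraries were fitted for changes between days, and the 12 libraries of each day for comparisons within a day. CPM values are from the fit of all libraries. The code was tested on simulated data. Alternatives were DESeq2 1.42.0, median-of-ratios factors, library totals, no filter, the highest line per symbol, all libraries in 1 fit, unadjusted p-values, blocks and leaving out each library. Leaving out TKO clone TKO_8.12 was added after the data were examined.

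By the labels, 11 clones were sequenced on both days, which pairs the days. Deviations from the group mean of the same clone correlated at 0.0813 to 0.193 across genes, and those of other clones of the genotype at -0.193 to 0.112. Replicate numbers within a day do not pair clones. Named genes were all members, up to 3 called genes per list with the largest change (except 1 gene that is not reported here), and the 2 genes most like each member. Genes that overlap others are uncertain.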

Additional observations from a re-analysis of the deposited data

Results flagged for a closer look

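The change from D0 to D6 in a knockout differed from the change in WT, by the interaction test in edgeR over all 24 libraries, for 5 pairs of gene and knockout. In Tet2-/- the difference of log2 changes was -3.86 for Gata4 and -7.14 for Sox17. In TKO it was -4.21 for Gata4, -4.95 for Gata6 and -5.58 for Sox17. Without TKO clone TKO_8.12, whose D0 library was the highest for Gata6, the differences of Gata6 and Sox17 in TKO were -2.05 and -3.18 and were no longer called. That fit has 1 TKO library a day, assumed to vary like the other groups. Gata4 was called in Tet2-/- and in TKO in each of the 24 fits that left out 1 library. Sox17 in TKO ranged from -7.33 to -3.89 over these fits, and its call was lost in 5 of the 24, with adjusted p up to 0.319. Leaving out either D0 clone of Tet2-/- or its D6 clone Tet2_KO_3.11 ended the call of Sox17 in Tet2-/- (adjusted p from 0.0616 to 0.176). Groups here had 2 or 3 clones, which is too few to look for single outlying libraries.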

How the results depend on the processing

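The calls rested on few clones. Members called summed to 2 over the knockouts against WT at D0, 6 at D6, 5 for the difference of changes and 5 for Tet2-/- against the other knockouts, and with each library left out in turn these sums were 1 to 7, 0 to 11, 3 to 8 and 0 to 8. Calls over all genes moved in these fits too, from 0% to 17.1% of genes for Tet2-/- against WT at D6 (14.3% with all libraries), 0% to 4.67% for TKO at D6 (0%), 1.57% to 7.76% for TKO at D0 (3.15%), 0.0338% to 5.31% for Tet2-/- at D0 (3.19%), 2.55% to 13.4% for the difference of changes in Tet2-/- (8.68%) and 1.92% to 7.33% in TKO (3.58%). For Tet2-/- against Tet1-/-, DKO and TKO they lay between 0.0126% and 13.2%. At D6 the sum against WT fell to 1 without clone Tet2_KO_3.10 and to 0 without Tet2_KO_3.11, and it was 11 without WT clone O4.2 and 10 without Tet1_KO_2.4. At D0 it was 1 without either Tet2-/- clone, 7 without TKO_8.4 and 4 without TKO_8.12. The sum for the difference of changes was 3 without TKO_8.12 at D0 and 8 without O4.2 at D6, where Tet2-/- against the other knockouts also had 8. By comparison, leaving out libraries gave 1 to 3 members called for D6 against D0 in TKO, where 21.0% to 27.0% of all genes were called. Against WT at D0 it gave 0 to 2 in Tet2-/-, 0 to 1 in DKO (0% to 1.59% of genes) and 1 to 4 in TKO, and at D6 0 to 6 in Tet2-/- and 0 to 5 in TKO. For the difference of changes it gave 1 to 3 in Tet2-/- and 1 to 5 in TKO. For Tet2-/- at D6 it gave 0 to 4 against Tet1-/-, 0 to 2 against DKO and 0 to 2 against TKO.

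Some log2 values that were not called changed sign when a library was left out. For D6 against D0 these were Hnf4a in WT (-1.18 to 0.11), DKO (-1.07 to 0.97) and TKO (-0.64 to 0.95), and Sox17 in Tet2-/- (-1.06 to 0.93). At D0 against WT they were Gata4 in Tet1-/- (-0.12 to 0.25), Gata6 in Tet1-/- (-0.49 to 0.47), DKO (-0.21 to 0.75) and TKO (-1.42 to 2.65), Sox17 in Tet2-/- (-0.29 to 0.43), and Sox7 in Tet2-/- (-0.49 to 0.10), DKO (-0.53 to 0.25) and TKO (-0.30 to 0.28). At D6 against WT they were Foxa2 (-1.0 to 0.19) and Sox7 (-0.70 to 0.014) in Tet1-/- and Sox7 in TKO (-0.27 to 0.18). For the difference of changes they were Hnf4a in DKO (-0.68 to 1.35) and Hnf4a (-0.25 to 1.33) and Sox7 (-0.36 to 0.23) in TKO, and for Tet2-/- against TKO they were Gata4 (-0.86 to 0.26) and Foxa2 (-0.30 to 2.41).

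DESeq2 gave 12 calls in all at D6 against WT, with 1 in DKO and 5 in TKO, 1 call in DKO at D0, and 9 calls for Tet2-/- against the other knockouts, 3 of them against TKO. Of all 15435 genes tested at D6, DESeq2 called 1525 lower and 820 higher for Tet2-/- against WT. Set against Tet1-/-, Tet2-/- had 999 genes lower and 408 higher. Against DKO these counts were 1153 and 603, and against TKO they were 1162 and 549. The D0 comparison of DKO with WT had 79 genes lower and 31 higher of 14456. Without the filter on low counts there was 1 call in DKO at D0 (0.406% of genes), 3 in TKO at D6 (0.455%) and 1 for Tet2-/- against TKO (6.95%). With all 24 libraries in 1 fit the calls against WT were 1 at D0, in Tet2-/- (1.97% of genes), with 0 in TKO (1.99%), and 11 at D6, with 6 in Tet2-/- (16.3%) and 5 in TKO (3.29%). At an unadjusted p under 0.05 there were 17 at D6, with 2 in Tet1-/-, 4 in DKO and 5 in TKO. By that limit, 1798 of 15435 genes were lower and 950 higher for Tet2-/- against WT at D6. Without TKO clone TKO_8.12 on both days, chosen after the data were examined, 4 members were called for D6 against D0 in TKO (19.0% of genes), Hnf4a there was -0.12, and the difference of changes had 3 calls, 1 of them in TKO (6.28% of genes). Median-of-ratios factors and the highest line per symbol changed no call of a member. Library totals ended the call of Hnf4a in Tet1-/- (adjusted p = 0.0736), shifted the all-gene median between days to values from 0.14 to 0.21 (log2), and moved the all-gene split of higher and lower calls between days from 2904 and 1660 to 3531 and 1168 in DKO and from 2626 and 1350 to 3124 and 950 in TKO. The cause of these changes was not tested.

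With clone as a block between days, Hnf4a in Tet1-/- was no longer called (adjusted p = 0.0958), Gata4 in Tet2-/- was called (adjusted p = 0.0169), and no other call of a member changed. Within a day the samples share only a number, and deviations of libraries with the same number correlated at -0.0718 to 0.312 at D0 and -0.377 to 0.312 at D6. That block changed no call and turned the sign of values near 0, at D0 Gata4 in Tet1-/- (-0.0056), Sox17 in Tet2-/- (-0.22) and Sox7 in Tet2-/- (0.0096), DKO (0.13) and TKO (0.21), and at D6 Sox7 in TKO (0.19). Foxa2 at D0 and, in every library, Sox7 at D6 and Hnf4a in Tet2-/- at D6 rest on few counts, and the depth limits their values.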
